A study of Mus musculus with 16 samples.

Results

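Activins, myostatin and GDF11 are secreted ligands of the transforming growth factor β superfamily, and this account follows 9 mouse genes of that pathway through primary hippocampal cultures. They are the ligand genes Mstn, Inhba, Inhbb and Gdf11, the inhibitor gene Fst, the type I receptor genes Acvr1b and Acvr1c, and the type II receptor genes Acvr2a and Acvr2b. The set was chosen because of the rise of Mstn after Dnmt3a1 knockdown, and the other 8 genes came with it as its relatives, inhibitor and receptors. The 9 genes are part of 55385 in the gene table, and all 9 passed the filter on low counts that left 17222 genes for testing.

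The cultures came from the hippocampus of newborn mice and were infected with recombinant adeno-associated virus, which makes the hairpin RNA from a U6 promoter and GFP from the chicken β-actin promoter. Control cultures carried Control-shRNA (shControl in the labels), and Knockdown cultures carried a hairpin against Dnmt3a1, the long isoform of the DNA methyltransferase Dnmt3a (shDnmt3a1 in the labels, Dnmt3a1-shRNA2 in the study). Each kind of culture was harvested either without stimulation (baseline, 0 h) or after 4 h of bicuculline, a blocker of GABA-A receptors that releases network firing. This gave 16 RNA-seq libraries in 4 groups of 4, described by the study as independent neuronal preparations, with total estimated counts between 28912697 and 29586355. All groups carried virus and hairpin, so no uninfected culture enters the comparisons, and the Knockdown groups rest on 1 hairpin construct.

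In this pathway a ligand dimer is held by a type II receptor, which phosphorylates a type I receptor, which in turn phosphorylates SMAD2 and SMAD3, and these enter the nucleus with SMAD4. The products of Inhba and Inhbb are the β subunits of activin A and activin B. Myostatin, the product of Mstn, is best known as a muscle-derived brake on muscle growth, GDF11 is its closest relative, and follistatin, the product of Fst, binds these ligands and keeps them from their receptors. In hippocampal neurons Inhba is known as a gene that responds strongly to synaptic activity.

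The hairpin's target was checked first. Dnmt3a was at 293 to 338 CPM (counts-per-million values, scaled with TMM factors) in the 8 Control libraries and at 39.4 to 48 CPM in the 8 Knockdown libraries, with no overlap. This is the summed level of all Dnmt3a isoforms, and it went with the labels in 16 of 16 libraries. Neuronal markers were the most abundant of the marker lists, with 8 genes summing to 6650 to 8720 CPM over all libraries. Astrocyte markers (6 genes) were also present, at 227 to 407 CPM in Control baseline, 249 to 508 in Control bicuculline, 305 to 550 in Knockdown baseline and 422 to 626 in Knockdown bicuculline. The cultures were therefore mixed, and in bulk RNA fewer cells of a type cannot be told apart from less RNA per cell.

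Myostatin is described first, because its level chose the set. Mstn (ENSMUSG00000026100.6, chr1:53061640-53068079, plus strand, GRCm38.p6) stood at 2.8, 2.84, 3.26 and 3.73 CPM in the 4 Control baseline libraries. After bicuculline the Control libraries held 1.19, 2.24, 1.72 and 1.82 CPM. Every Control baseline library was above every Control bicuculline library.

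In Knockdown baseline the values were 8.12, 8.53, 9.53 and 10.1 CPM. In Knockdown bicuculline they were 10.2, 10.7, 10.7 and 8.05 CPM. All 8 Knockdown libraries were higher than all 8 Control libraries, and the 2 Knockdown groups overlapped each other. The group means were 3.16 ± 0.435 CPM in Control baseline, 1.74 ± 0.43 in Control bicuculline, 9.07 ± 0.906 in Knockdown baseline and 9.93 ± 1.28 in Knockdown bicuculline (SD, n = 4 each).

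The fitted log2 fold change of Mstn, Knockdown over Control, was 1.52 (SE 0.15) at baseline, or 2.87-fold, and 2.51 (SE 0.16) in bicuculline, or 5.68-fold. On log2(TPM + 1), a scale that shrinks differences of scarce genes, they were 1.13 and 1.76. These are the values by which the set was chosen, and all 16 libraries entered them, so every value of Mstn is given without a test. The log2 difference between bicuculline and baseline was -0.85 (SE 0.17) in Control and 0.13 (SE 0.14) in Knockdown. The difference between these responses was 0.98 (SE 0.22), and 0.63 on log2(TPM + 1). The value of 0.13 changed sign where only library sizes were used for scaling (-0.02), a setting in which the median of all genes was itself at -0.157.

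Sequence shared between Mstn and its relatives was looked for in the annotated transcripts, and the reads themselves were not examined. Of the 2704 different 31-base words in its 2 annotated transcripts, 0 occurred in a transcript of any other gene of GENCODE M21, and none of the 9 genes shared such a word with another of the 9. kallisto assigns reads by words of this length. The gene was thinly covered, with 32 to 301 estimated counts in a library.

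Because Dnmt3a adds methyl groups to cytosines of CpG dinucleotides, the promoter of Mstn is shown with its CpG sites in capitals. The sequence is the 250 bases before the RefSeq start, chr1:53061390-53061639 of GRCm38.p6, plus strand, written 5′ to 3′. DNA methylation was not part of these data.

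Mstn: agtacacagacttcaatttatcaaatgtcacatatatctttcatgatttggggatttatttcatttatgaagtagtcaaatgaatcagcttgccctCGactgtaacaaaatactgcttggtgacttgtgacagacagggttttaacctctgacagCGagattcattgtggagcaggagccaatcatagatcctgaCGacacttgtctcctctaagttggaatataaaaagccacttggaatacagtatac

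This stretch held 3 CpG sites and 38.4% G and C, and 37.8% of 32851 mouse promoter windows of the same length held as few CpG sites. It contained 4 matches to CANNTG (the E-box, searched on both strands, found in 66.2% of windows), 1 match to TGANTCA (the AP-1 motif, 6.75% of windows) and 1 match to TGACG (the half-site of the cAMP response element, 17.8% of windows). These are matches of letters only.

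Genes around Mstn were followed as well. Within 500 kb on either side 28 other genes are annotated, of which 12 were tested. In Knockdown against Control, 2 of the 12 were called at baseline and 1 in bicuculline, each of them lower, beside 4.07% and 3.9% of all tested genes called lower. They were Hibch, an enzyme of valine breakdown 141 kb from Mstn, with a log2 fold change of -0.58 at baseline (edgeR adjusted p = 0.00131) and -0.37 in bicuculline (adjusted p = 0.0258, not called), and 1700019D03Rik, 41.5 kb away. 1700019D03Rik fell by 0.72 at baseline and by 0.84 in bicuculline (edgeR adjusted p = 0.00319 and 0.00148). The other 10 (Nemp2, Gm37242, Mfsd6, Inpp1, Pms1, Ormdl1, Osgepl1, Gm28551, Asnsd1 and Dnah7a) had log2 fold changes between -0.31 and 0.28 and were not called. With bicuculline 2 of the 12 were called in Control and 3 in Knockdown, all lower, beside 11.1% and 13.2% of all tested genes. Nemp2 had values of -1.05 and -1.11, 1700019D03Rik of -0.59 and -0.71, and Mfsd6 of -0.57 in Knockdown.

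Mstn is known from muscle, so 13 skeletal muscle markers were followed. Myf5 was at 0 in every library, Myod1 and Myf6 reached at most 1 estimated count in a library and Myog at most 4. The summed level of the list was 9.64 to 14.8 CPM in Control baseline, 10.4 to 16.8 in Control bicuculline, 7.52 to 15.9 in Knockdown baseline and 10.4 to 17.2 in Knockdown bicuculline. These ranges overlapped in all 4 groups. Most of the sum was Myh8, a developmental myosin heavy chain, at group means between 8.69 and 10.9 CPM. Among the 5 markers that could be tested, Acta1 was called lower in Knockdown at baseline (log2 fold change -1.51, edgeR adjusted p = 0.00511) and in bicuculline (-1.12, adjusted p = 0.027), and Myh3 was called higher in bicuculline (0.75, adjusted p = 0.041). Astrocyte marker sums were higher in Knockdown, with means of 423 against 304 CPM at baseline and 528 against 382 CPM in bicuculline, and the part of either marker list in the Mstn level was not tested.

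**Figure D1:**
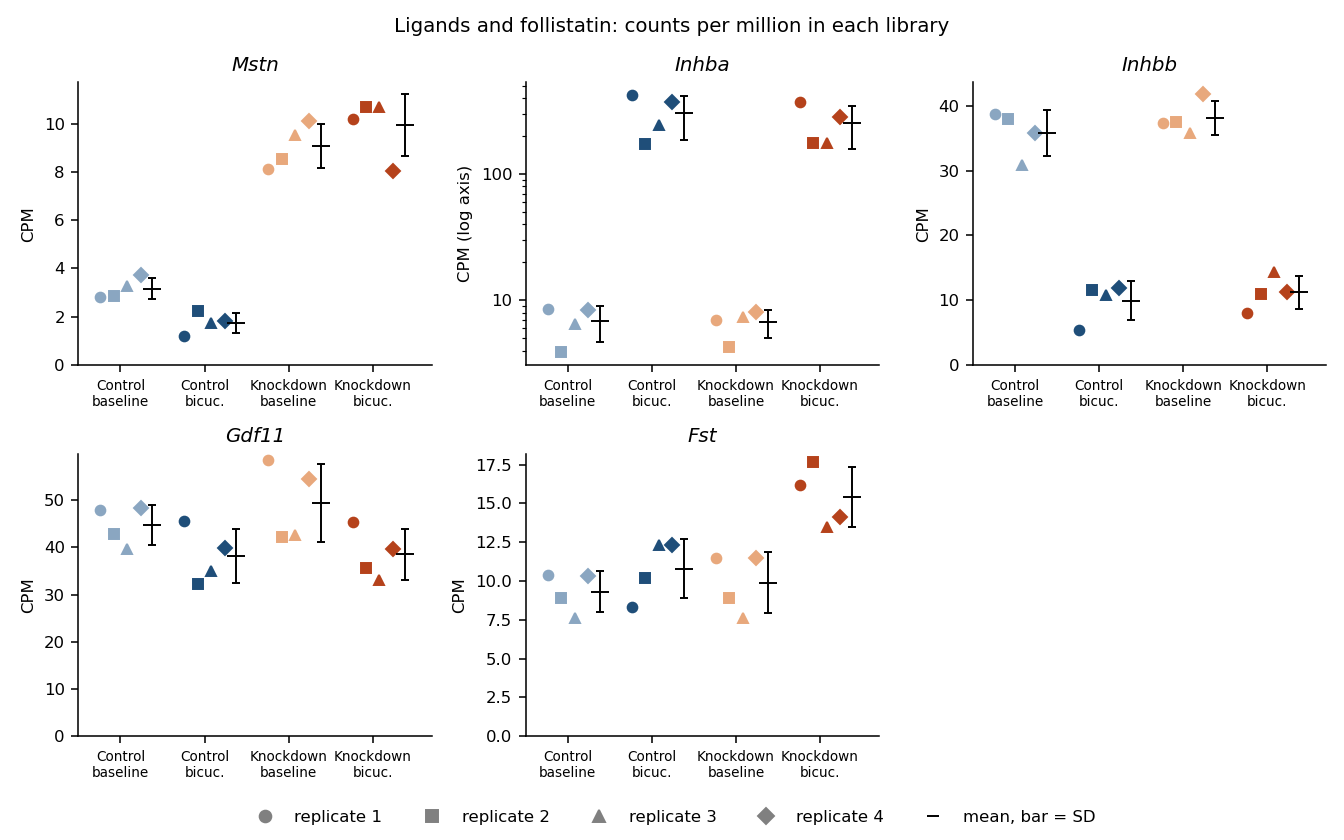
Counts-per-million values (y axis, a log axis for Inhba and linear for the others) of the 4 ligand genes and Fst in each of the 16 libraries, by group on the x axis, with the group mean and SD (n = 4) in black beside the points. Mstn is higher in all 8 Knockdown libraries than in all 8 Control libraries, Inhba rises from 3.89 to 8.52 CPM at baseline to 172 to 422 CPM after bicuculline, and Inhbb falls.

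The activin subunit genes gave the widest activity response of the set, in opposite directions. Inhba (ENSMUSG00000041324.14, chr13:16011851-16031621, plus strand) was at 8.52, 3.89, 6.54 and 8.46 CPM in Control baseline. After 4 h of bicuculline it was at 422, 172, 245 and 373 CPM in Control. The lowest stimulated library was above the highest unstimulated one by a wide margin.

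In Knockdown, Inhba was at 7.03, 4.28, 7.4 and 8.05 CPM at baseline. It reached 372, 178, 176 and 285 CPM after bicuculline. The rise was 44.3-fold in Control (log2 fold change 5.47, SE 0.35, edgeR adjusted p = 1.5e-09) and 37.8-fold in Knockdown (5.24, SE 0.35, adjusted p = 1.8e-09). Both calls held in all 16 fits without 1 library and under all 11 other settings.

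The Inhba response was not shown to differ between the hairpins. The difference of the log2 responses was -0.23 (SE 0.45), and the Knockdown and Control libraries overlapped both at baseline (-0.03, SE 0.35, edgeR adjusted p = 0.967) and in bicuculline (-0.26, SE 0.28, adjusted p = 0.567). Replicate 2 was the lowest or next to lowest library of Inhba in each group. The spread among stimulated libraries was broad, with an SD of 115 CPM around a mean of 303 in Control and of 94.4 around 253 in Knockdown.

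Inhbb (ENSMUSG00000037035.5, chr1:119415465-119422248, minus strand) moved the other way. It was at 38.7, 38, 30.8 and 35.8 CPM in Control baseline and at 5.47, 11.6, 10.8 and 11.8 CPM in Control bicuculline. The Knockdown libraries held 37.4, 37.5, 35.8 and 41.8 CPM at baseline and 7.96, 11, 14.3 and 11.3 CPM after bicuculline. No stimulated library reached the lowest unstimulated one.

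Inhbb fell by 1.85 on the log2 scale in Control (SE 0.19, edgeR adjusted p = 3.9e-07) and fell by 1.77 in Knockdown (SE 0.19, adjusted p = 4.79e-07), to 0.277 and 0.293 of the baseline level. These calls, too, held in the 16 fits without 1 library and under the 11 other settings. Between Knockdown and Control its log2 fold changes were 0.09 (SE 0.17) at baseline and 0.17 (SE 0.19) in bicuculline, neither of them called (adjusted p = 0.786 and 0.594).

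The promoters of these oppositely moving genes are shown next to each other, as the 250 bases before the RefSeq start in GRCm38.p6, 5′ to 3′ on the gene's strand, with CpG sites in capitals. Inhba lies at chr13:16011601-16011850 on the plus strand and Inhbb at chr1:119422249-119422498 on the minus strand.
Inhba: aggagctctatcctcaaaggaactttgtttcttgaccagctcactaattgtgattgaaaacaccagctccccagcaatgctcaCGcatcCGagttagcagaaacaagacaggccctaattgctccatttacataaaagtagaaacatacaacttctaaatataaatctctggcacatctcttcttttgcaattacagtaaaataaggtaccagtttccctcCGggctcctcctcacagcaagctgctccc
Inhbb: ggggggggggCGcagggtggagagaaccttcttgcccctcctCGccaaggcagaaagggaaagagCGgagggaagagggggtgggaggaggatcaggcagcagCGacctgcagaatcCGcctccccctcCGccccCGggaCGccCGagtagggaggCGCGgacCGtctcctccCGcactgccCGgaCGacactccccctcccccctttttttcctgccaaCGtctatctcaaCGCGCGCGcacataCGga

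The Inhba stretch held 3 CpG sites and 43.2% G and C, close to that of Mstn, whereas the Inhbb stretch held 21 CpG sites and 68% G and C. Of all promoter windows, 85.2% held as few CpG sites as Inhbb. Neither stretch held a match to the 3 motifs searched above, which says only that these letters are not in this window. A window was matched for 8 of the 9 genes. First windows of Gdf11, Acvr1b, Acvr1c, Acvr2a and Acvr2b held 24 to 49 CpG sites, against a median of 6 over all windows. Among the first windows of the 8 matched genes, which leave out Fst, those of Mstn and Inhba thus held the fewest. A further window listed for Acvr1c held 2.

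Compared per transcript length, in TPM (the share of all transcripts after length adjustment), the activin subunit that dominated changed with stimulation. The ratio of Inhba to Inhbb had a median of 0.146 in Control baseline and 0.131 in Knockdown baseline, and it was below 1 in all 8 of these libraries. After bicuculline its median was 20.5 in Control and 16.4 in Knockdown, and it was above 1 in all 8 libraries. This ratio was chosen after the values were seen and is given without a test.

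Gdf11 (ENSMUSG00000025352.6, chr10:128882295-128891718, minus strand), the relative of Mstn, ranged from 32.3 to 58.5 CPM over all libraries. It was at 47.8, 42.9, 39.6 and 48.3 CPM in Control baseline and at 45.5, 32.3, 35 and 39.9 CPM in Control bicuculline. Knockdown libraries held 58.5, 42.1, 42.7 and 54.4 CPM at baseline and 45.4, 35.7, 33.1 and 39.7 CPM after bicuculline. All 4 groups overlapped in CPM, though each bicuculline library was below the baseline library of the same hairpin and replicate number. In TPM the treatments did not overlap, at 22.7 to 25.6 against 15.2 to 19.6 in Control and 20.4 to 27.1 against 15.2 to 18.2 in Knockdown. On that scale the median of all genes also fell with bicuculline.

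The log2 response of Gdf11 to bicuculline was -0.23 in Control (SE 0.13, edgeR adjusted p = 0.171) and -0.36 in Knockdown (SE 0.13, adjusted p = 0.0262). The second passed the adjusted p and stayed below the fold threshold of 0.5 on the log2 scale. It was past that threshold with library sizes only (-0.51) and by limma on TPM (-0.53 and -0.55). In the fit blocked on replicate number, the Control response of Gdf11 also passed the adjusted p (0.0026), again below the fold threshold. Knockdown and Control differed by 0.15 (SE 0.13) at baseline and by 0.01 (SE 0.13) in bicuculline. Mstn and Gdf11 were not tested against each other.

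Fst (ENSMUSG00000021765.9, chr13:114452290-114458951, minus strand), which encodes the secreted inhibitor follistatin, was highest in Knockdown bicuculline. It was at 10.4, 8.89, 7.64 and 10.3 CPM in Control baseline and at 8.3, 10.2, 12.3 and 12.3 CPM in Control bicuculline. With the knockdown it was at 11.5, 8.93, 7.65 and 11.5 CPM at baseline and at 16.2, 17.7, 13.5 and 14.1 CPM after bicuculline. The 4 libraries of the last group were above all 12 others.

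Fst rose with bicuculline in Knockdown (log2 fold change 0.63, SE 0.15, edgeR adjusted p = 0.00218), a call that held in all 16 fits without 1 library and under 10 of 11 other settings, the exception being library sizes only (0.49). In Control the value was 0.21 (SE 0.15, adjusted p = 0.3). The difference between these responses, 0.42 (SE 0.22), was itself not called (adjusted p = 1). In bicuculline Fst was higher in Knockdown than in Control by 0.51 (SE 0.15, adjusted p = 0.026). This call was close to both thresholds. It was lost without Control bicuculline replicate 1 (0.4, adjusted p = 0.0727), without Control bicuculline replicate 2 (0.49, 0.063), without Knockdown bicuculline replicate 1 (0.48, 0.0629) and without Knockdown bicuculline replicate 2 (0.43, 0.0862). It was also lost with library sizes only (0.43, 0.0444) and by limma on TPM with either pseudocount (0.41, 0.121, and 0.44, 0.118). Astrocyte marker sums were also higher in Knockdown bicuculline (mean 528 CPM) than in Control bicuculline (mean 382 CPM), and their part in the Fst difference was not tested. Of the 31-base words of Fst, 2.25% also occur in transcripts of other genes, and for Inhba this share is 0.713%.

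Among the type I receptors, Acvr1b, which encodes ALK4, was the abundant gene. Acvr1b (ENSMUSG00000000532.11, chr15:101174067-101213684, plus strand) was at 133, 148, 125 and 130.0 CPM in Control baseline and at 88.3, 94.9, 94.5 and 89.8 CPM in Control bicuculline. In Knockdown it was at 104, 103, 93.1 and 96.5 CPM at baseline and at 50.5, 55.4, 66 and 59 CPM after bicuculline. Control baseline was above and Knockdown bicuculline below every other library, and the groups between them overlapped.

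Bicuculline lowered Acvr1b in Control by 0.54 on the log2 scale (SE 0.07, edgeR adjusted p = 1.33e-05) and in Knockdown by 0.78 (SE 0.08, adjusted p = 1.79e-07). The first of these lay near the fold threshold, and without Control baseline replicate 2 it was -0.49. Knockdown against Control gave -0.67 in bicuculline (SE 0.08, adjusted p = 9.69e-06), called in all 16 fits without 1 library and under all 11 other settings. At baseline the value was -0.43 (SE 0.07, adjusted p = 0.000606), with no overlap of the groups, but below the fold threshold. It was called with library sizes only (-0.51) and by limma on TPM (-0.54 and -0.55). Of the 8 genes other than Mstn, Acvr1b had the lowest unadjusted p of the interaction (0.0378, edgeR), which did not pass adjustment (adjusted p = 0.982).

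Acvr1c, which encodes ALK7 (ENSMUSG00000026834.13, chr2:58267453-58357895, minus strand), was scarce. It was at 5.99, 4.69, 5.75 and 6.45 CPM in Control baseline and at 4.8, 2.84, 3.4 and 4.98 CPM in Control bicuculline. Values in Knockdown were 6.11, 3.79, 6.38 and 5.89 CPM at baseline and 5.03, 3.07, 2.89 and 4.25 CPM after bicuculline. Stimulated and unstimulated libraries overlapped with either hairpin.

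The log2 response of Acvr1c was -0.51 in Control (SE 0.21, edgeR adjusted p = 0.0576) and -0.54 in Knockdown (SE 0.21, adjusted p = 0.0432), so that only the second was called. Both sat at the edge of the thresholds. In the fit blocked on replicate number, the Control value became -0.53 with an adjusted p of 0.00224 and was called. It was also called with library sizes only (-0.67, adjusted p = 0.00918), without the filter (-0.52, 0.0394), by voom with limma (-0.54, 0.0468), by limma on log2(TPM + 0.1) (-0.71, 0.0178) and in the fit of only the groups compared (-0.52, 0.0395), and so under 6 of 11 other settings. The Knockdown call was lost under 4 of 11. These were DESeq2 size factors in edgeR (-0.52, adjusted p = 0.0575), only the groups compared (-0.53, 0.0595), and limma on TPM with pseudocounts of 1 (-0.31, 0.0427) and 0.1 (-0.54, 0.0601). Leaving out 1 library ended the Knockdown call in 7 of 16 fits, namely without Control baseline replicates 1 and 3, Knockdown baseline replicates 1, 3 and 4, and Knockdown bicuculline replicates 2 and 3, with values between -0.55 and -0.43. In Control, 6 of the 16 such fits made the call, without Control baseline replicate 2, Control bicuculline replicates 1 and 4, Knockdown baseline replicate 2, and Knockdown bicuculline replicates 1 and 3, with values between -0.65 and -0.51. Between the hairpins Acvr1c differed by -0.04 (SE 0.2) at baseline and by -0.07 (SE 0.22) in bicuculline. Of its 31-base words, 1.54% also occur in the antisense gene Gm13544.

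**Figure D2:**
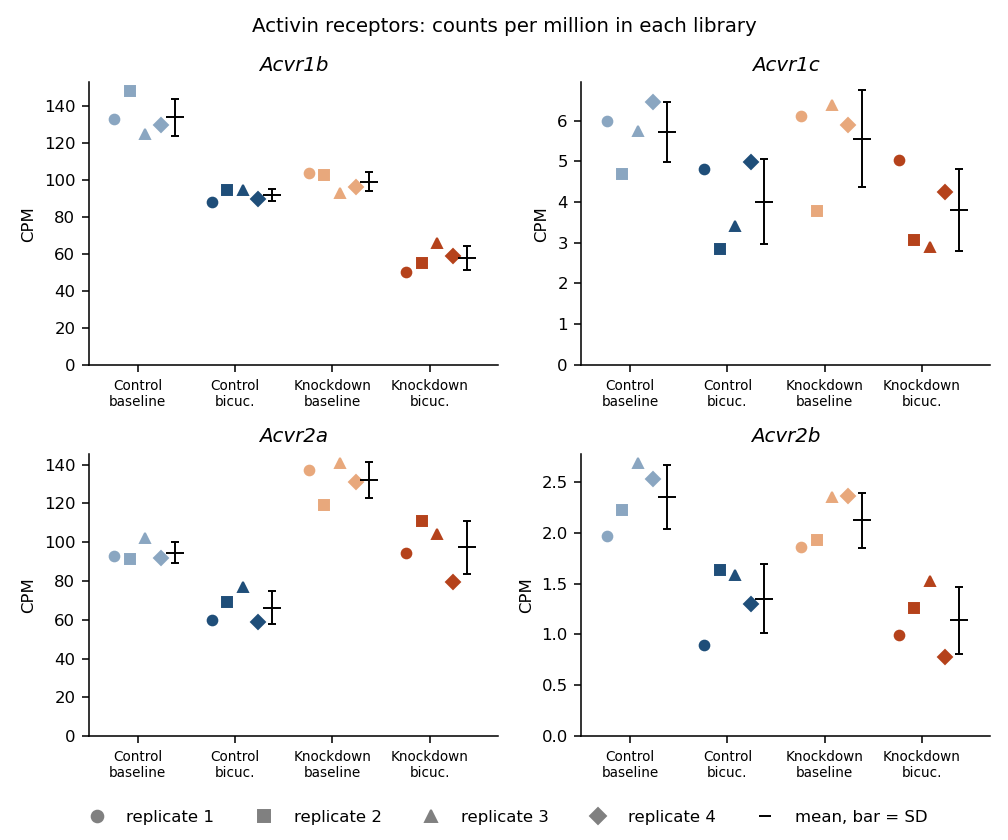
Counts-per-million values (linear y axes from 0) of the 4 receptor genes in each of the 16 libraries, by group on the x axis, with the group mean and SD (n = 4) in black beside the points. Acvr1b is lower and Acvr2a is higher in Knockdown than in Control, at baseline and in bicuculline, and the mean of each receptor gene is lower after bicuculline with either hairpin.

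The type II receptor gene Acvr2a (ENSMUSG00000052155.5, chr2:48814109-48903269, plus strand), which encodes the activin receptor ActRIIA, went up where Acvr1b went down with the knockdown. It was at 92.9, 91.4, 102 and 92.1 CPM in Control baseline and at 59.9, 69.4, 76.8 and 58.9 CPM in Control bicuculline. In Knockdown it was at 137, 119, 141 and 131 CPM at baseline and at 94.7, 111, 104 and 79.5 CPM after bicuculline. Knockdown libraries were above Control libraries of the same treatment without overlap.

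Acvr2a was higher in Knockdown by 0.55 on the log2 scale in bicuculline (SE 0.1, edgeR adjusted p = 0.000895). This call was lost without Knockdown bicuculline replicate 2 (0.48) and under 3 of 11 other settings, library sizes only (0.48) and limma on TPM with either pseudocount (0.42 and 0.44). At baseline the value was 0.48 (SE 0.1, adjusted p = 0.00272), just below the fold threshold. It passed that threshold without Control baseline replicate 3 (0.52) and without Knockdown baseline replicate 2 (0.52). The direction was positive in all of these fits. The astrocyte marker sums given above were also higher in Knockdown, and their part in the Acvr2a difference was not tested.

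Bicuculline lowered Acvr2a in Control by 0.51 (SE 0.1, adjusted p = 0.000404). That value fell under the fold threshold without Control baseline replicate 3 (-0.48), without Control bicuculline replicate 1 (-0.47) and without Control bicuculline replicate 4 (-0.48). With DESeq2 size factors and in the DESeq2 Wald test it was -0.5 and also not called, so that the call held under 9 of 11 other settings. In Knockdown it was -0.44 (SE 0.1, adjusted p = 0.00129), not called. It was called without Knockdown bicuculline replicate 2 (-0.51), with library sizes only (-0.59) and by limma on TPM (-0.62 and -0.64). The last 446 bases of the Acvr2a locus overlap Orc4 on the opposite strand, and 7.32% of the 31-base words of Acvr2a also occur in Orc4. Orc4 itself had log2 fold changes of 0.01 and 0.06 between Knockdown and Control (adjusted p = 0.962 and 0.719), and of 0.29 and 0.34 with bicuculline.

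Acvr2b (ENSMUSG00000061393.14, chr9:119402118-119434995, plus strand), which encodes ActRIIB, a main receptor of myostatin, was the scarcest gene of the set by CPM. It was at 1.97, 2.22, 2.68 and 2.53 CPM in Control baseline and at 0.893, 1.63, 1.58 and 1.3 CPM in Control bicuculline. In Knockdown it was at 1.86, 1.93, 2.35 and 2.36 CPM at baseline and at 0.99, 1.26, 1.53 and 0.775 CPM after bicuculline. Stimulated libraries were below unstimulated libraries of the same hairpin without overlap.

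Acvr2b fell by 0.8 with bicuculline in Control (SE 0.21, edgeR adjusted p = 0.00499) and by 0.89 in Knockdown (SE 0.21, adjusted p = 0.00227). Both calls held in the 16 fits without 1 library, and the second was lost under 1 of 11 other settings, limma on log2(TPM + 1) (-0.5). Knockdown and Control overlapped at baseline (-0.15, SE 0.2, adjusted p = 0.684) and in bicuculline (-0.24, SE 0.22, adjusted p = 0.497).

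With the genes side by side, more genes were called with bicuculline than between the hairpins. In Control, 5 of the 8 genes other than Mstn were called with bicuculline, 1 higher and 4 lower, beside 21.9% of all tested genes (10.8% higher and 11.1% lower). Their median log2 fold change was -0.51, against 0.01 over all genes. In Knockdown, 6 of the 8 were called, 2 higher and 4 lower, beside 25.8% of all genes (12.6% higher and 13.2% lower). All 8 passed the adjusted p, beside 7919 of all 17222 tested genes. The median of the 8 was -0.49, against -0.01 over all genes.

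Knockdown against Control called 0 of the 8 genes other than Mstn at baseline (edgeR), beside 5.83% of all genes (1.76% higher and 4.07% lower). DESeq2 and voom with limma also called 0. In edgeR 2 of the 8, Acvr1b and Acvr2a, passed the adjusted p, beside 2809 of all 17222 genes. An unadjusted p below 0.05 was found for 2 of the 8. In bicuculline 3 of the 8 were called, 2 higher and 1 lower, beside 5.89% of all genes (2% higher and 3.9% lower). For the difference between the responses edgeR called 0% of the 17222 genes and none of the 8, while 4.95% of all genes and 1 of the 8 had an unadjusted p below 0.05. voom with limma also called 0 genes for that difference, the replicate block called 3 and DESeq2 called 17. The comparisons of the hairpins and of the treatments share libraries, so their counts are not independent of each other.

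**Figure D3:**
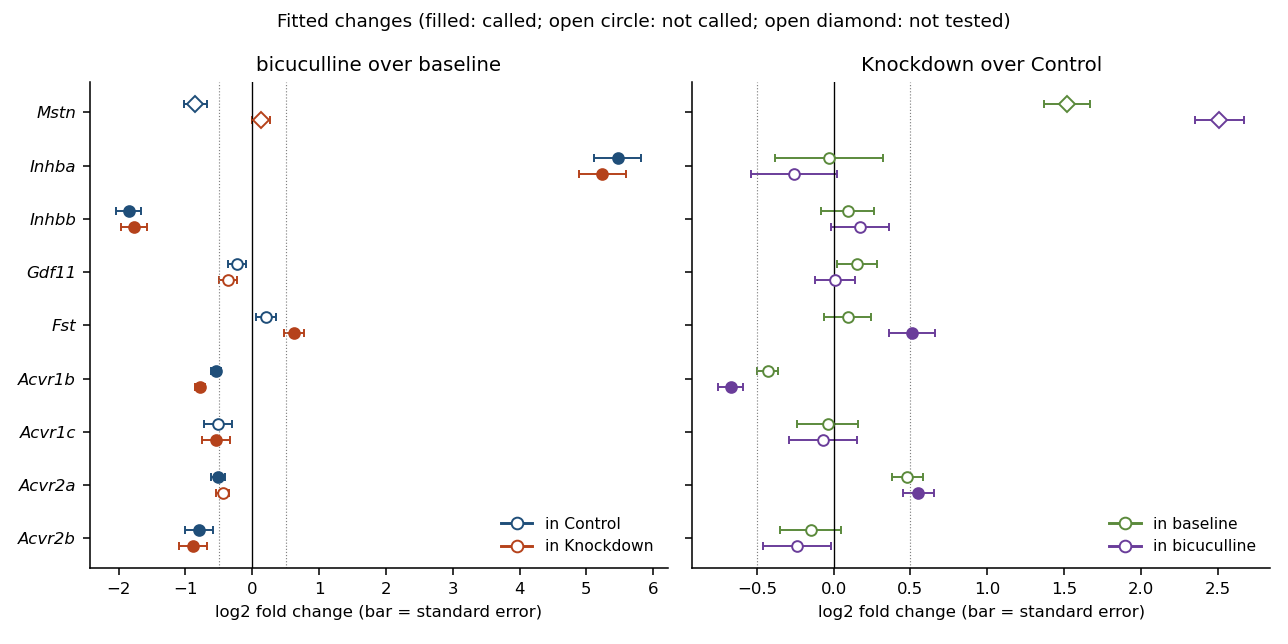
Fitted log2 fold changes with standard errors (x axis) for the 9 genes (y axis), bicuculline over baseline on the left and Knockdown over Control on the right, with dotted lines at the fold threshold of 0.5 in either direction. Inhba and Inhbb stand out to the right and left in the left panel, and Acvr1b and Acvr2a lie on opposite sides of 0 in the right panel. Mstn, which was not tested, is drawn as a diamond.

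The order of the 9 genes by TPM, a scale on which genes can be compared per length, also changed. In Control baseline the order was Acvr1b (65.8 ± 5.39 TPM, SD, n = 4), Acvr2a (36 ± 3.79), Gdf11 (23.9 ± 1.27), Inhbb (18.3 ± 1.17) and Fst (10.5 ± 1.69), each without overlap with the next. Mstn (2.62 ± 0.419), Inhba (2.32 ± 0.681), Acvr2b (1.92 ± 0.343) and Acvr1c (1.38 ± 0.191) followed, and each of these overlapped its neighbour in the order. The receptors Acvr1b and Acvr2a thus led, and Mstn was among the 4 scarce genes.

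In Control bicuculline Inhba moved to the top at 101 ± 35.1 TPM, above Acvr1b at 39.2 ± 3.2. Inhbb dropped to 4.44 ± 1.46 and Mstn to 1.26 ± 0.34. In Knockdown baseline Acvr2a (46.3 ± 5.8) and Acvr1b (44.9 ± 1.59) overlapped at the top, and Mstn stood at 6.96 ± 1.12, between Fst (9.34 ± 2.35, overlapping) and Inhba (2.5 ± 0.934). In Knockdown bicuculline Inhba was highest at 80.5 ± 22.8, and Mstn at 6.63 ± 1.02 overlapped Inhbb at 4.65 ± 1.38.

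The balance of the abundant receptors differed between the hairpins. The TPM ratio of Acvr2a to Acvr1b had a median of 0.542 in Control baseline and 0.548 in Control bicuculline, and it stayed between 0.479 and 0.634 over those libraries. In Knockdown its median was 1.03 at baseline (0.898 to 1.16) and 1.33 in bicuculline (1.04 to 1.54). No Control library reached the lowest Knockdown library. This ratio, too, was chosen after the values were seen and has no test of its own.

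**Figure D4:**
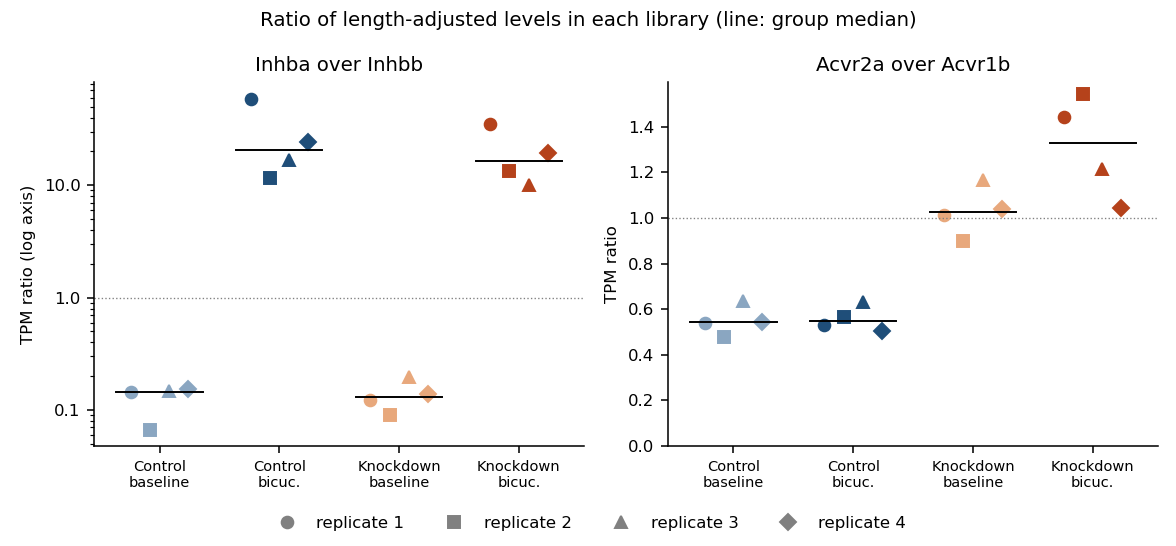
Ratio of TPM values in each of the 16 libraries, Inhba over Inhbb on the left (log axis) and Acvr2a over Acvr1b on the right (linear axis from 0), with the group median as a line and a dotted line at 1. The left ratio separates libraries by bicuculline, with medians of 0.146 and 20.5 in Control, and the right ratio separates them by hairpin.

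Other genes of the pathway were followed as 5 lists, 60 genes in all, of which 52 could be tested. With bicuculline 18 of the 52 were called in Control, 14 higher and 4 lower, and 20 in Knockdown, 17 higher and 3 lower, beside 21.9% and 25.8% of all tested genes. The median log2 fold changes of the 52 were 0.26 with either hairpin, whereas those of the members named above were negative. Knockdown against Control called 2 of the 52 at baseline, both lower, and 3 in bicuculline, 1 higher and 2 lower, beside 5.83% and 5.89% of all tested genes. The single lists held 6 to 15 tested genes, and their counts were not tested against these shares.

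Among 10 tested other ligands, 3 were called with bicuculline in Control (2 higher, 1 lower) and 4 in Knockdown, all higher, against 21.9% and 25.8% of all genes. Bmp2, a bone morphogenetic protein, rose from 2.27 to 11.2 CPM in Control (log2 fold change 2.29, SE 0.18, edgeR adjusted p = 1.35e-08) and from 1.7 to 8.5 CPM in Knockdown (2.31, SE 0.18, adjusted p = 1.5e-08). Tgfb2, which encodes transforming growth factor β2, rose from 22.1 to 73.6 CPM and from 29.8 to 91.8 CPM. The call of Gdf1 in Control (-6.9, SE 2.11) is uncertain, because Gdf1 lies within the Cers1 locus on the same strand and its baseline level of 2.63 CPM had an SD of 4.3 over the 4 libraries. Inha, the inhibin α subunit that pairs with the activin β subunits, was lower in Knockdown in bicuculline (16.6 against 24.6 CPM, -0.57, SE 0.14, adjusted p = 0.00912). At baseline Inha was also lower in Knockdown (15.7 against 21.6 CPM, -0.46, SE 0.14, adjusted p = 0.0302), below the fold threshold and so not called.

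Of 10 tested antagonists and carriers, 5 were called with bicuculline in Control (3 higher, 2 lower) and 3 in Knockdown (1 higher, 2 lower). Over all tested genes the shares called were 21.9% and 25.8%. Ltbp1, a latent TGF-β binding protein, rose by 1 and 1.14 on the log2 scale in Control and Knockdown. Chrd, which encodes the BMP antagonist chordin, fell by 0.71 and 0.92. Fstl3, a close relative of follistatin that also binds activin and myostatin, fell from 1.56 to 0.275 CPM in Control (-2.49, SE 0.46, edgeR adjusted p = 0.000306) and from 1.64 to 0.302 CPM in Knockdown (-2.4, SE 0.46, adjusted p = 0.00031), and it was picked out after its values were seen. Chrd was also lower in Knockdown in bicuculline (-0.51, SE 0.11, adjusted p = 0.00339).

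Ligands of this family are made as precursors and cut by proteases. Of 6 processing genes, 3 were called with bicuculline with either hairpin, all higher. Beside them, 21.9% of all tested genes were called in Control (10.8% higher) and 25.8% in Knockdown (12.6% higher). The tolloid-like metalloprotease gene Tll1, whose protein family frees latent myostatin, rose from 6.26 to 23 CPM in Control (1.88, SE 0.3, edgeR adjusted p = 6.18e-05) and from 3.01 to 22.2 CPM in Knockdown (2.88, SE 0.32, adjusted p = 9.94e-07). The proprotein convertases Pcsk6 and Furin rose by 1.51 and 0.59 in Control and by 1.65 and 0.52 in Knockdown. At baseline Tll1 was lower in Knockdown (-1.05, SE 0.33, adjusted p = 0.0367).

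Of 11 other receptors and co-receptors, 4 were called with bicuculline with either hairpin, 3 higher and 1 lower. The shares of all tested genes were 21.9% in Control and 25.8% in Knockdown. The BMP type I receptor Bmpr1a rose by 0.68 in Control and 0.98 in Knockdown, and the co-receptor Tgfbr3 (betaglycan, which helps inhibin bind activin receptors) fell by 0.81 and 0.84. Between the hairpins 1 of the 11 passed the adjusted p at baseline and 2 in bicuculline, below the fold threshold. Of all 17222 tested genes, 2809 and 3046 passed it.

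Of 15 tested SMAD genes and regulators, 3 were called with bicuculline in Control and 6 in Knockdown, all higher. The count in Control was near the share of all genes (21.9%, with 10.8% higher). In Knockdown that share was 25.8%, with 12.6% higher. Smad7, the inhibitory SMAD that is itself a target of the pathway, rose from 7.66 to 34.1 CPM in Control (2.15, SE 0.08, edgeR adjusted p = 2.81e-12) and from 8.32 to 32.9 CPM in Knockdown (1.98, SE 0.08, adjusted p = 6.17e-12). Pmepa1, another target that dampens SMAD signalling, rose by 0.99 and 1.35, and the co-repressor Tgif1 by 1.23 and 1.14. Between the hairpins Pmepa1 was lower in Knockdown at baseline (-0.51, SE 0.14, adjusted p = 0.0214), and the SMAD co-repressor Skil was higher in Knockdown in bicuculline (96.3 against 61.1 CPM, 0.66, SE 0.14, adjusted p = 0.00403). In each of these comparisons 6 of the 15 passed the adjusted p, beside 2809 and 3046 of all 17222 genes, and the rest of them were not called. Smad2 was higher in Knockdown (0.28 and 0.33, edgeR adjusted p = 0.0072 and 0.00213) and Zfyve9 lower (-0.4 and -0.24, adjusted p = 0.000962 and 0.0279). Both were picked out after their values were seen. Smad3 and Smad4 did not pass the adjusted p between the hairpins.

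**Figure D5:**
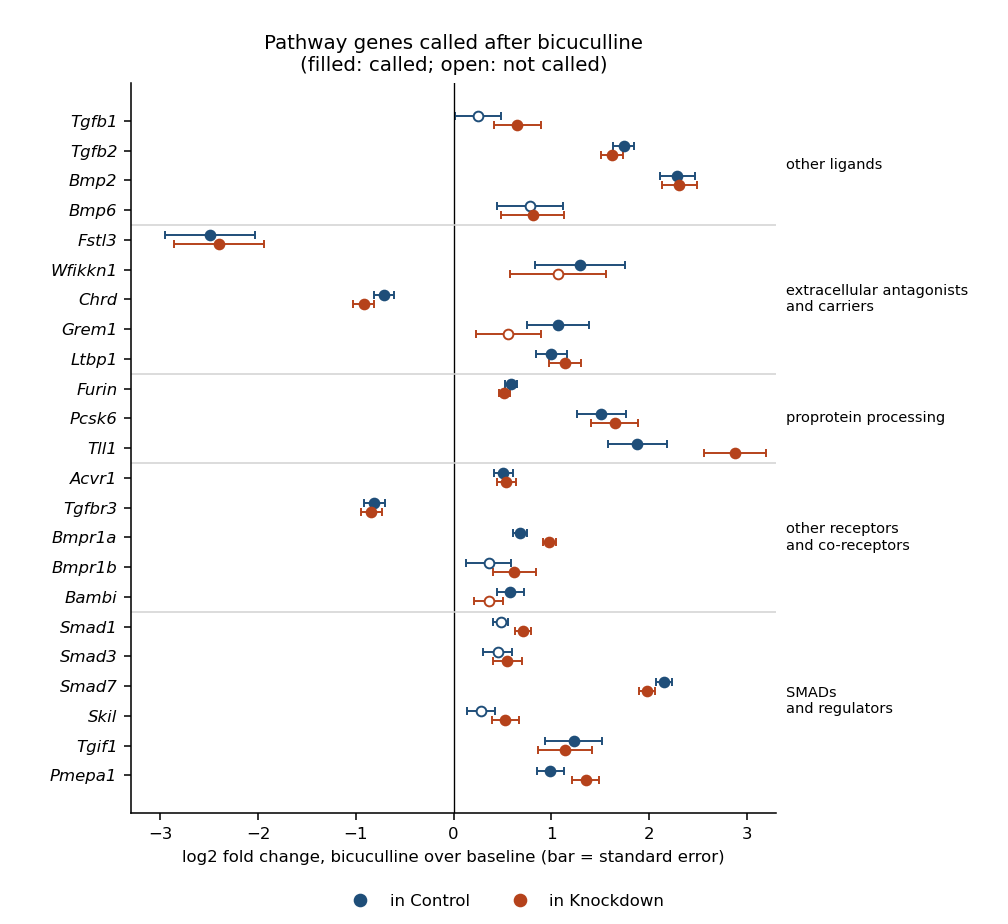
Fitted log2 fold changes with standard errors (x axis), bicuculline over baseline, of the pathway genes called with either hairpin (y axis, grouped by list, without Gdf1), in Control and in Knockdown. Smad7 and Bmp2 lie near 2 on the right with both hairpins, and Fstl3, Chrd and Tgfbr3 are the genes on the left.

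Genes with the pattern most like Mstn were sought among 13880 tested genes that averaged 1 CPM or more, by the Pearson correlation of log2 CPM over the 16 libraries. The 5 most alike were Plxnc1 (r = 0.937), Fbxo7 (0.936), Sobp (0.933), Tom1l2 (0.931) and Fam102b (0.929). Plxnc1, a plexin receptor for semaphorins, had group means of 90.9 and 92 CPM in Control and of 191 and 185 CPM in Knockdown. The 16 libraries fall into 4 groups, so these values describe a shared group pattern. Of the other 8 genes of the set, Acvr2a was most like Mstn (0.794) and Acvr1b least (-0.488).

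The 5 genes most like Inhba were Noct (r = 0.994), Crybg3, Sntb2, Rel and Rabgef1 (each 0.993). Rel, which encodes the NF-κB subunit c-Rel, had group means of 2.78 and 2.94 CPM at baseline and of 21.5 and 25.7 CPM after bicuculline. Inhbb was the opposite of Inhba within the set (-0.965), followed by Acvr2b (-0.856).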

How the data were processed

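RNA-seq was done on 16 libraries of mouse hippocampal cultures, 4 in each of 4 groups taken from the labels. Per the labels and the study's methods, the authors trimmed reads with Trim Galore 0.6.4 and quantified them with kallisto (given as 0.4.6 in the labels) on GRCm38.p6, and deposited a table of gene-level estimated counts and TPM values for each library. Whether reads were counted by strand is not given in the sources used here. Estimated counts were rounded, scaled by TMM, filtered with filterByExpr and fitted in 1 model of 4 groups with the edgeR 4.0.16 quasi-likelihood test (R 4.3.3), with Benjamini-Hochberg adjustment over 17222 genes. Calls needed an adjusted p below 0.05 and an absolute log2 fold change above 0.5, and for the interaction the adjusted p alone. SE is the fold change over the root of the F statistic. The method was tested on simulated data. TPM values as deposited were used for ratios, order and limma 3.58.1 with pseudocounts of 1 and 0.1. The other alternatives were DESeq2 1.42.0, voom, other scalings and filters, no fold threshold, only the groups compared, a replicate block and each library left out. Dropping the fold threshold reuses the main fit, so no call can be lost by it. Fits without a library from outside the groups compared kept those groups whole.

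The members and lists were chosen with earlier results of these data known. Since all 16 libraries entered the choice of Mstn, it was given no test in any comparison. A gene of the pathway lists is not reported here and was left out of their counts. Named were all members, up to 3 called genes a list and comparison, those of the largest fold change that averaged 1 CPM or more, tested genes within 500 kb of Mstn, and the 5 genes most like Mstn and Inhba. Replicates differed by more than sampling noise (7.64 to 42.6 chi-square units per degree of freedom). Replicate numbers are shared between groups. Same-numbered libraries were taken as paired where every pair deviated together with a correlation above 0.1. This held for bicuculline in Control (0.107 to 0.166) and for Knockdown against Control at baseline (0.17 to 0.309). Correlations in Knockdown (0.0559 to 0.276) and in bicuculline (0.025 to 0.325) were also positive, but not all passed that cutoff. The main fit had no replicate block. With a block, genes called over all tested genes rose from 1004 to 1284 for Knockdown at baseline and from 1015 to 1338 in bicuculline. For bicuculline they rose from 3765 to 3986 in Control and from 4436 to 4612 in Knockdown. Promoters are from RefSeq and gene positions from GENCODE M21, matched for 55144 of 55385 genes.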

Additional observations from a re-analysis of the deposited data

Results flagged for a closer look

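In 36 groups of 4 values (9 genes in 4 groups), the sample farthest from the others was compared with the spread of its group, and chance flags about 1 in 20 such groups. Inhbb in Control bicuculline replicate 1 stood apart at 5.47 CPM, below 3 values between 10.8 and 11.8, with a gap of 0.836 of the range. Without that library the Inhbb response in Control remained called. Acvr2a in Control baseline replicate 3 stood apart at 102 CPM, above 3 values between 91.4 and 92.9, with a gap of 0.86 of the range. Without it the Acvr2a response to bicuculline in Control was -0.48 and its Knockdown difference at baseline 0.52, each on the other side of the fold threshold.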

How the results depend on the processing

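With a replicate block for the paired libraries, the call that changed among the 8 genes tested was Acvr1c with bicuculline in Control (-0.53, adjusted p = 0.00224), and the block changed no other call of a member. In the comparisons not taken as paired the block changed none, but it raised the pathway genes called between hairpins in bicuculline from 3 to 5, as did DESeq2. Without a fold threshold the pathway counts were 28 for bicuculline in Control, 12 for Knockdown at baseline and 11 in bicuculline, and voom called 1 pathway gene at baseline. For bicuculline in Knockdown limma on log2(TPM + 1) called 13 pathway genes against 20. Members called in Knockdown at baseline numbered 1 with library sizes only or on TPM and 2 without a fold threshold, and in bicuculline 1 with library sizes only or on TPM. Leaving out 1 library gave 0 to 1 members and 1 to 2 pathway genes at baseline, and 1 to 3 members and 3 to 5 pathway genes in bicuculline. The member count was 1 at baseline without Control baseline replicate 3 or Knockdown baseline replicate 2, and 1 in bicuculline without Knockdown bicuculline replicate 2. The pathway count was 1 at baseline without Control baseline replicates 1, 3 or 4 or Knockdown baseline replicates 3 or 4, and 5 in bicuculline without Control bicuculline replicate 2. Over all genes, no fold threshold called 7131, 7919, 2809 and 3046 genes in the 4 comparisons against 3765, 4436, 1004 and 1015, and the interaction called 3 without the filter and 1 without Control bicuculline replicate 1 instead of 0.

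Signs turned only for values that were not called or, for Mstn, not tested. With library sizes only and on TPM the median of all genes moved by -0.131 to -0.187 with bicuculline. With those settings Mstn in Knockdown was -0.02 with library sizes, and -0.06 and -0.07 on TPM (pseudocounts 1 and 0.1). On TPM, in the same order, Knockdown against Control at baseline was 0.07 and 0.09 for Inhba, -0.02 and -0.03 for Inhbb, and -0.17 and -0.18 for Fst. In bicuculline it was -0.09 with either pseudocount and -0.06 with library sizes for Gdf11, and 0.01 and 0.02 for Acvr1c. Fst with bicuculline in Control was -0.05 and -0.06. The interaction was 0.09 and 0.17 for Acvr1c and 0.11 and 0.1 for Acvr2b. With 1 library left out, Knockdown against Control at baseline ranged from -0.23 to 0.13 for Inhba and from -0.13 to 0.1 for Acvr1c. In bicuculline it ranged from -0.03 to 0.3 for Inhbb, from -0.08 to 0.1 for Gdf11 and from -0.24 to 0.06 for Acvr1c. The interaction ranged from -0.12 to 0.21 for Inhbb, from -0.19 to 0.1 for Acvr1c and from -0.28 to 0.04 for Acvr2b. The cause of these shifts was not tested. Depth limits Acvr2b, Acvr1c and Mstn most, since each was under 11 CPM in every library.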

Other observations

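Markers of other cell types moved with the hairpin or with bicuculline in places. S100b, 1 of 6 astrocyte markers and the only one called, was higher in Knockdown at baseline (0.82, edgeR adjusted p = 0.021) and in bicuculline (0.84, adjusted p = 0.017). Csf1r, 1 of 2 microglial markers that could be tested, was called lower (-0.66, adjusted p = 0.04, and -0.75, adjusted p = 0.0259). The other, C1qa, was not called (0.04 and -0.02). Among neuronal markers Gad1 and Gad2, which make GABA, rose with bicuculline in Control (0.61 and 0.65) and in Knockdown (0.73 and 0.82), while the neuronal tubulin gene Tubb3 fell (-0.77 and -1.12). Between the hairpins, Tubb3 alone of 8 neuronal markers was called, higher in Knockdown at baseline (0.51, edgeR adjusted p = 0.000952). Col1a2, a fibroblast collagen gene, rose by 0.55 and 0.56 with bicuculline, and Pdgfrb by 0.56 in Control. Of 6 fibroblast and vessel markers tested, 1 was called higher in Knockdown at baseline (Pdgfrb, 0.75, adjusted p = 0.00971) and 1 in bicuculline (Lum, 0.67, adjusted p = 0.0334). Summed levels of 7 fibroblast and vessel markers were 16 to 24.3 CPM in Control baseline, 18.4 to 37.5 in Control bicuculline, 18.9 to 30.4 in Knockdown baseline and 26.9 to 40.4 in Knockdown bicuculline. Those of 6 oligodendrocyte lineage markers were between 21.5 and 42 CPM, and those of 6 microglial markers between 1.89 and 4.91 CPM. Of 5 oligodendrocyte lineage markers tested, Mog alone was called. It was lower with bicuculline in Control (-0.83, edgeR adjusted p = 0.0105) and in Knockdown (-0.79, adjusted p = 0.011). How far these cells contribute to the levels of the activin pathway genes was not tested.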
